A study of Mus musculus with 9 samples.

Results

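The chromatin regulators described here were the genes on the array whose single annotated symbol belongs to the Kdm, Hdac, Chd, Smarc, Cbx, Dnmt or Tet families, together with Ezh1, Ezh2, Suz12, Eed, Rnf2 and Bmi1. The rule found 72 members among 18193 genes with a probe set of 1 symbol, and 67 of them were bright enough to be tested among 11575 genes. They were measured in GFP-positive cells sorted by flow cytometry from forelimbs of Scx-GFP mouse embryos, in which green fluorescent protein reports the tendon gene Scx, a transcription factor of tendon progenitors. The 3 groups were E11.5, E12.5 and E14.5 (embryonic days), with 3 Affymetrix arrays per stage that the labels letter A, B and C. All groups carried the same reporter, the embryos came from natural matings and were untreated, and the sort kept GFP-positive cells only. The labels give no strain or sex, do not say whether embryos were pooled or whether letters stand for separate litters, and name a pair of cytometers without tying them to arrays, so p-values measure only the spread between these samples.

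DNA in the nucleus is wrapped on histones, and the proteins described here mark, read, remove or reposition that packaging. Polycomb complexes place (PRC2) and read (PRC1) repressive histone methylation and are best known in the limb for holding Hox genes silent. Dnmt enzymes methylate cytosine and Tet enzymes oxidise the methyl group, Hdac enzymes remove acetyl groups from histones and other proteins, and Kdm enzymes remove methyl groups from histone lysines. Chd proteins and the Smarca proteins are ATP-driven motors that slide or evict nucleosomes, most of them in large complexes such as SWI/SNF, ISWI and NuRD.

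Between E14.5 and E11.5, chromatin regulators were more often lower than higher at the later stage. Of the 67 tested members, 25 fell (37.3%, against 17.7% of all genes tested), 6 rose (8.96%, against 22.9% of all genes tested) and 36 were not called. A member was called at an adjusted p under 0.05 from limma, with Benjamini-Hochberg adjustment over all 11575 genes. The median log2 change of the members was -0.34, against 0.00 over all genes tested. With each array centred on the median of all its probe sets, which was 0.20 higher (log2) at E14.5 than at E11.5, 18 members fell and 2 rose (Cbx6 and Smarca2), while 9.24% of all genes tested fell and 11% rose. Under that scaling Cbx1, Chd1l, Hdac6, Kdm1a, Kdm2b, Kdm3a, Kdm4a, Smarcal1, Hdac5, Hdac9, Kdm4c and Smarca1 lost their calls (limma adjusted p from 0.0504 for Kdm1a to 0.411 for Hdac5), and Kdm5d fell. In bulk samples, fewer cells of a type and less RNA per cell cannot be told apart. The largest falls were those of the remodeller Chd7, the PRC1 subunit Cbx2, the methyltransferase Dnmt3b and the PRC2 enzyme Ezh2, and the largest rises those of the PRC1 subunit Cbx6 and the SWI/SNF motor Smarca2.

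**Figure D1:**
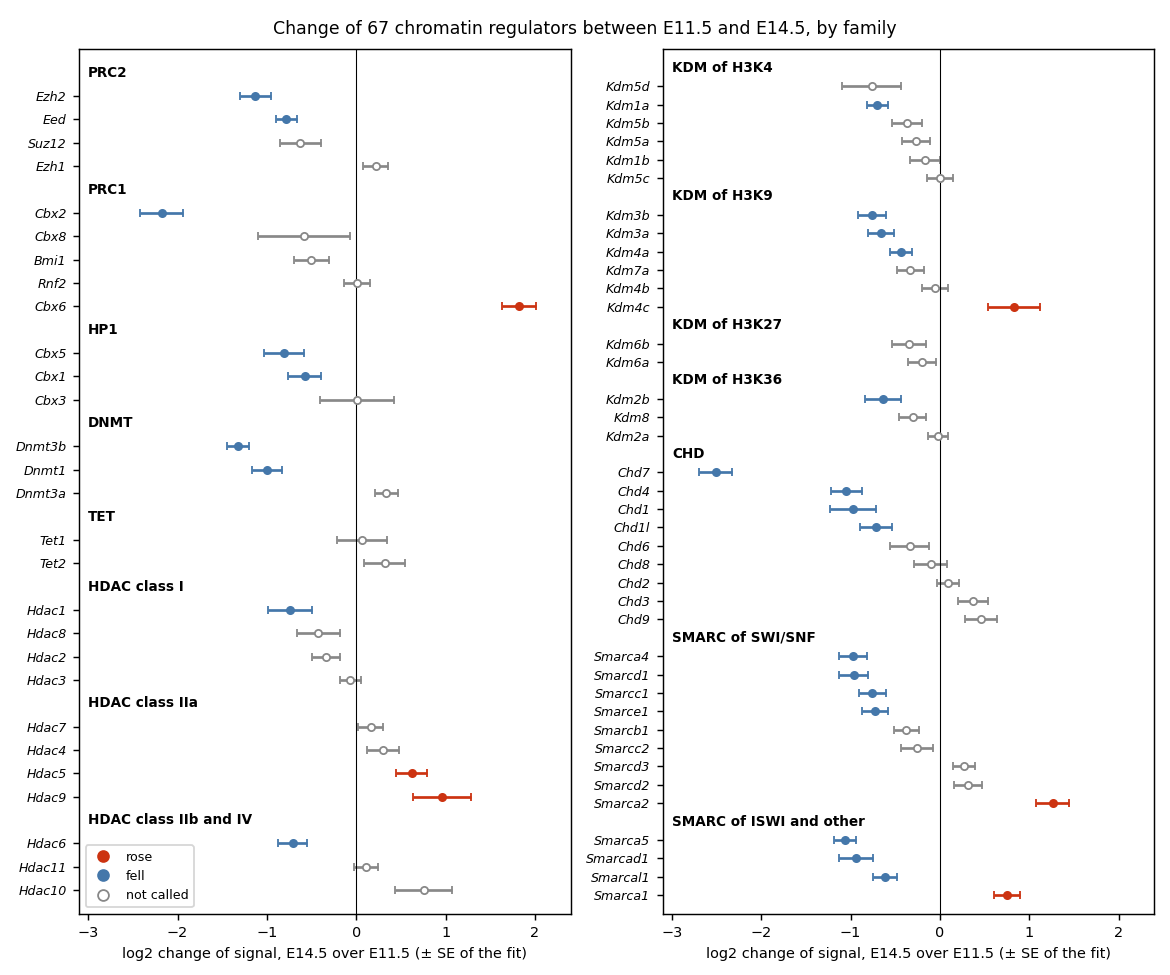
Log2 change of signal at E14.5 over E11.5 for the 67 tested members, in families (points, with the standard error of the fit as bars). Filled red points rose, filled blue points fell and open grey points were not called. Falls lie in most families, down to -2.51 for Chd7, and the 6 rises reach 1.82 for Cbx6.

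More members were called between E14.5 and E12.5 than between E12.5 and E11.5. Between E12.5 and E11.5, 1 member fell (Chd7, with 0.441% of all genes tested falling) and 1 rose (Hdac9, with 3.11% rising). Between E14.5 and E12.5, 19 members fell (28.4%, against 9.32% of all genes tested) and 2 rose (2.99%, against 12.6%). With the arrays centred as above, 3 of these 19 falls and the rise of Cbx6 held, while 2.43% of all genes tested fell and 5.49% rose. As a description of the 25 members that fell between E14.5 and E11.5, their median log2 change was -0.24 between E12.5 and E11.5 and -0.54 between E14.5 and E12.5, which span 1 day and 2 days. Of these 25, 24 were below 0 in the first interval and all 25 in the second. Of the 67 members, 35 were called between no pair of stages.

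**Figure D2:**
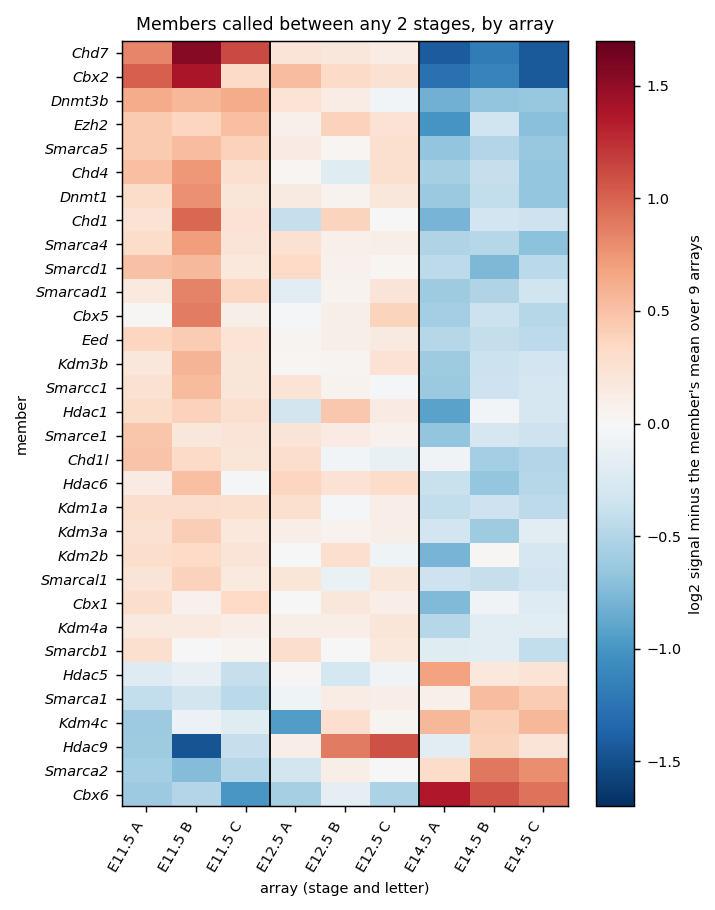
Log2 signal of each member called between any pair of stages, minus that member's mean over the 9 arrays, with arrays in order of stage and letter (colour scale in log2 units). Of the 25 members that fell between E14.5 and E11.5, 23 are blue in every E14.5 array and red in every E11.5 array (all but Hdac6 and Kdm2b), while Cbx6 and Smarca2 run the other way. Of the same 25, 19 have their highest E11.5 signal in array B, a count that was not made over all genes tested.

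Of the PRC2 core, the catalytic subunit Ezh2 and the subunit Eed lost signal. Ezh2, the main methyltransferase of H3K27, had signals of 7736, 7322 and 8105 at E11.5, 6000, 7399 and 6700 at E12.5, and 2832, 4475 and 3453 at E14.5, in the order of arrays A, B and C. The arrays of E14.5 lay below all arrays of both earlier stages. Ezh2 fell by 1.13 ± 0.18 between E14.5 and E11.5 (log2 ± SE, n = 3 arrays per stage, as for every change given; limma adjusted p = 0.000929) and by 0.92 ± 0.18 between E14.5 and E12.5 (limma adjusted p = 0.00609). Eed, which reads the mark and activates the enzyme, had signals of 3741, 3911 and 3401 at E11.5, 2998, 3113 and 3223 at E12.5, and 2081, 2195 and 2134 at E14.5. Its groups did not overlap at any pair of stages, and it fell by 0.78 ± 0.12 between E14.5 and E11.5 (limma adjusted p = 0.000708) and by 0.54 ± 0.12 between E14.5 and E12.5 (limma adjusted p = 0.0104). Suz12, the third core subunit, had signals of 2398, 3078 and 2740 at E11.5, 2016, 2450 and 2582 at E12.5, and 1213, 2221 and 2043 at E14.5. Array A was the lowest at each stage, the E14.5 arrays lay below the E11.5 arrays, and the difference between these stages of -0.63 ± 0.23 missed the threshold (limma adjusted p = 0.0533). Ezh1, the related enzyme that non-dividing cells keep, had signals of 306, 314 and 325 at E14.5, against 297, 263 and 253 at E11.5, a difference of 0.22 ± 0.14 that was not called (limma adjusted p = 0.243).

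**Figure D3:**
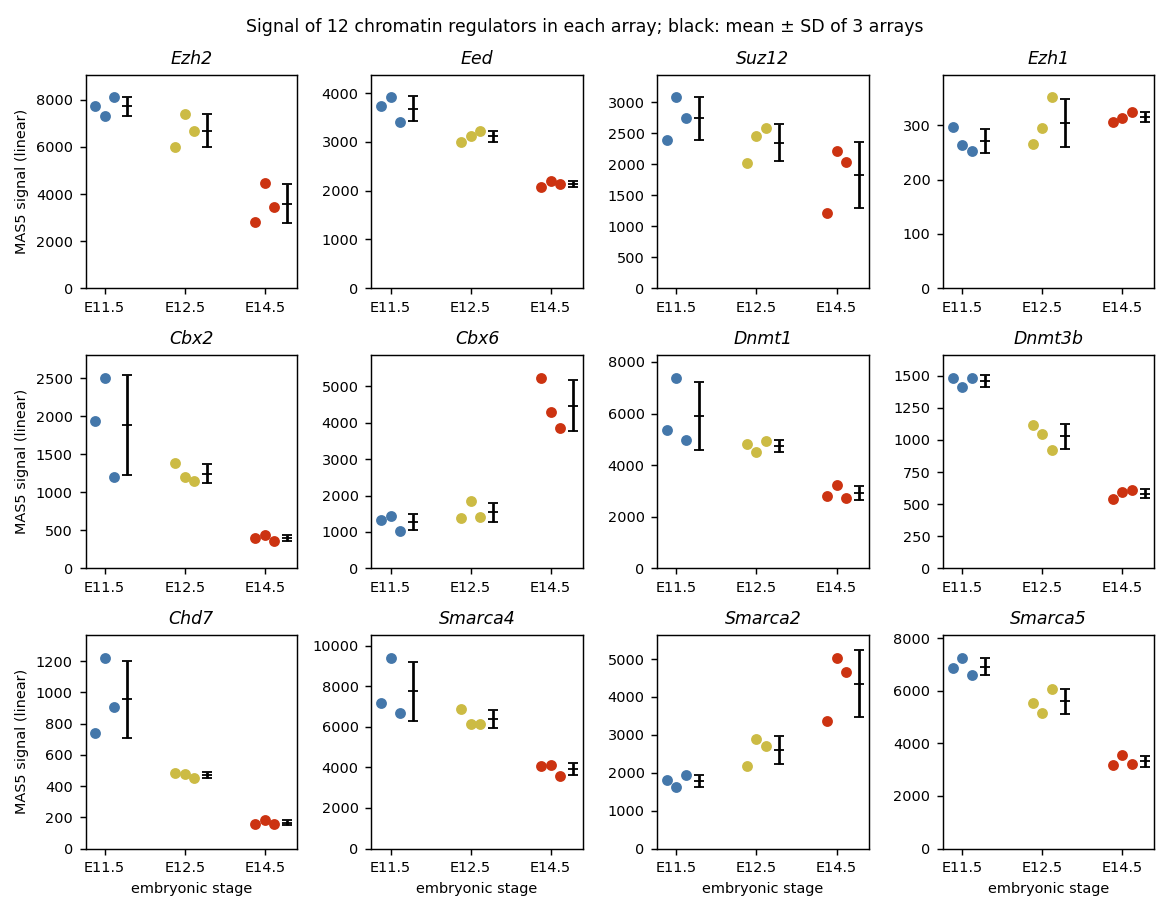
MAS5 signal of 12 members in each array (points; vertical axes linear and starting at 0, each with its own scale) at the 3 stages, with the mean and SD of 3 arrays in black. Ezh2, Eed, Cbx2, Dnmt1, Dnmt3b, Chd7, Smarca4 and Smarca5 are lowest at E14.5, Cbx6 and Smarca2 are highest there, and the Ezh1 points overlap between E12.5 and both other stages.

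The chromodomain subunits of PRC1, which read the mark, moved in opposite directions. Cbx2 had signals of 1937, 2507 and 1201 at E11.5, 1384, 1202 and 1152 at E12.5, and 400, 438 and 359 at E14.5. E14.5 stood apart from both earlier stages, which overlapped each other, and Cbx2 fell by 2.18 ± 0.24 between E14.5 and E11.5 (limma adjusted p = 0.000131) and by 1.64 ± 0.24 between E14.5 and E12.5 (limma adjusted p = 0.00161). Cbx6 had signals of 1330, 1448 and 1024 at E11.5, 1384, 1841 and 1402 at E12.5, and 5240, 4297 and 3867 at E14.5. Again E14.5 stood apart, this time above, and Cbx6 rose by 1.82 ± 0.19 between E14.5 and E11.5 (limma adjusted p = 8.72e-05) and by 1.54 ± 0.19 between E14.5 and E12.5 (limma adjusted p = 0.000615). A second Cbx6 probe set rose as well, by 1.39 ± 0.20 between E14.5 and E11.5 in a fit of all probe sets (limma adjusted p = 0.00115). The catalytic ubiquitin ligase Rnf2 was not called, with 3602, 4367 and 4681 at E14.5 against 4054, 4746 and 3749 at E11.5 (0.01 ± 0.15, limma adjusted p = 0.966). Bmi1, its activating partner, had 1412, 2280 and 2115 at E14.5 against 2446, 2944 and 2692 at E11.5 and was not called (-0.50 ± 0.20, limma adjusted p = 0.0654). Cbx8 was not called and Cbx7 was too dim to test.

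Of the HP1 proteins, which read the H3K9 methylation of heterochromatin, Cbx5 fell by 0.81 ± 0.22 (limma adjusted p = 0.0173) between E14.5 and E11.5, with 3329, 3844 and 3542 against 5017, 9039 and 5333. Array B of E11.5 was the high one, and without it the fall was 0.54. Cbx1 fell by 0.58 ± 0.18 (limma adjusted p = 0.0311), a call that was lost without array A of E14.5, array A of E11.5 or array C of E11.5, where the change lay between -0.55 and -0.37 (limma adjusted p from 0.0734 to 0.0853). Cbx3 was measured by a dim probe set only, with signals from 63.0 to 184, because its 4 other probe sets carry another symbol too, and it was not called.

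The DNA methyltransferases Dnmt1 and Dnmt3b fell, and the oxidising Tet enzymes were not called. Dnmt1, which restores methylation after replication, had signals of 5358, 7392 and 4969 at E11.5, 4812, 4492 and 4950 at E12.5, and 2800, 3233 and 2741 at E14.5. Its E14.5 arrays lay below all others, and it fell by 0.996 ± 0.166 between E14.5 and E11.5 (limma adjusted p = 0.00136). Dnmt3b, an enzyme of new methylation in early embryos, had signals of 1484, 1408 and 1485 at E11.5, 1119, 1043 and 925 at E12.5, and 541, 598 and 609 at E14.5. The 3 stages did not overlap, and Dnmt3b fell by 1.33 ± 0.12 between E14.5 and E11.5 (limma adjusted p = 4.83e-05) and by 0.82 ± 0.12 between E14.5 and E12.5 (limma adjusted p = 0.00197). Tet1 had 752, 1095 and 974 at E14.5 against 577, 1064 and 1140 at E11.5, and Tet2 had 965, 779 and 1055 against 555, 952 and 776. Both pairs of groups overlapped (0.07 ± 0.28, limma adjusted p = 0.877, for Tet1 and 0.32 ± 0.23, limma adjusted p = 0.298, for Tet2). Tet3 and Dnmt3l were too dim to test.

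Dnmt3a, the other enzyme of new methylation, gave different answers with different probe sets. The probe set that represents the gene, 1423063_at, had 3652, 3733 and 4290 at E14.5 against 2883, 3419 and 2945 at E11.5, and was not called (0.34 ± 0.13, limma adjusted p = 0.0619). The probe set 1423064_at had signals of 2170, 2145 and 1769 at E11.5, 1797, 1450 and 1685 at E12.5, and 563, 608 and 571 at E14.5. All E14.5 arrays of this probe set lay far below the others, a fall of 1.80 ± 0.14 between E14.5 and E11.5 in the fit of all probe sets (limma adjusted p = 4.75e-05). The probe set 1423066_at fell by 0.76 ± 0.20 (limma adjusted p = 0.0210), while 1423065_at and 1460324_at were not called, at -0.16 ± 0.21 and 0.60 ± 0.24 (limma adjusted p = 0.609 and 0.0871). The probe sets of Dnmt3a therefore changed unequally, and the files used here do not say which part of the transcript each of them reads.

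**Figure D4:**
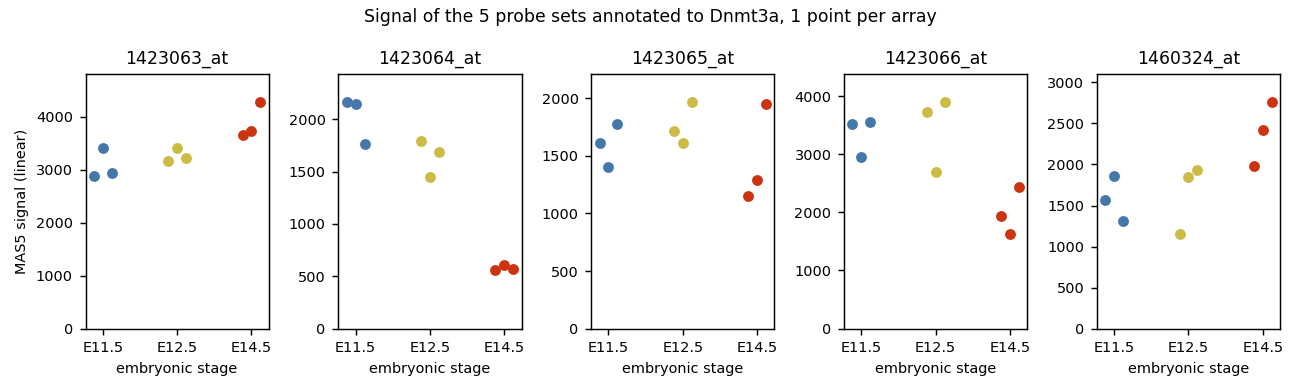
MAS5 signal of the 5 probe sets annotated to Dnmt3a in each array (points; linear vertical axes starting at 0, each with its own scale) at the 3 stages. Only 1423064_at drops to between 563 and 608 in every E14.5 array, and 1423063_at has its 3 highest values at E14.5.

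Of the histone deacetylases, Hdac1 and Hdac6 fell and Hdac5 and Hdac9 rose between E14.5 and E11.5. Hdac1, a catalytic subunit of NuRD and Sin3 complexes, had 1897, 3428 and 2910 at E14.5 against 4418, 4651 and 4290 at E11.5. Its fall of 0.74 ± 0.25 (limma adjusted p = 0.0370) was lost without array A or C of E14.5, array C of E12.5 or any array of E11.5, with limma adjusted p from 0.0520 to 0.109 and the change between -0.80 and -0.50. Hdac2, Hdac3 and Hdac8 of the same class were not called. The class IIa enzymes shuttle between nucleus and cytoplasm and act with MEF2 factors, and 2 of the 4 rose (against 22.9% of all genes tested). Hdac5 had 1113, 784 and 810 at E14.5 against 593, 627 and 524 at E11.5, a rise of 0.62 ± 0.17 (limma adjusted p = 0.0165) that was lost without array C of E11.5 (0.55, limma adjusted p = 0.0553).

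Hdac9 had its highest mean signal in the middle stage, with 134, 73.9 and 155 at E11.5, 220, 374 and 432 at E12.5, and 178, 265 and 236 at E14.5. The arrays of E12.5 and E14.5 overlapped, and the difference of E14.5 from E12.5 was not called (-0.56 ± 0.32, limma adjusted p = 0.248). Hdac9 rose by 1.51 ± 0.32 between E12.5 and E11.5 (limma adjusted p = 0.0384) and by 0.95 ± 0.32 between E14.5 and E11.5 (limma adjusted p = 0.0409). The first call was lost without arrays A or B of E11.5 or arrays B or C of E12.5 or E14.5 (log2 change from 1.19 to 1.62, limma adjusted p from 0.0589 to 0.152), and the second without arrays A or B of E11.5, array B of E12.5 or arrays B or C of E14.5 (log2 change from 0.63, without array B of E11.5, to 1.06, limma adjusted p from 0.0555 to 0.131). Hdac4 and Hdac7 were not called. Hdac6, a cytoplasmic deacetylase of tubulin, had 1073, 881 and 994 at E14.5 against 1531, 1983 and 1358 at E11.5 and fell by 0.71 ± 0.16 (limma adjusted p = 0.00654). Its signals at E12.5 were 1799, 1660 and 1736, so its groups separated between E14.5 and E12.5 too, where it fell by 0.82 ± 0.16 (limma adjusted p = 0.00685).

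Of the histone demethylases, 5 of 17 tested fell and 1 rose between E14.5 and E11.5, while 17.7% of all genes tested fell and 22.9% rose. Kdm1a, the LSD1 enzyme that acts on H3K4 with the CoREST corepressor, had signals of 7627, 7586 and 7468 at E11.5, 7457, 6105 and 6659 at E12.5, and 4614, 4830 and 4534 at E14.5. Its E14.5 arrays were the 3 lowest, and it fell by 0.70 ± 0.12 between E14.5 and E11.5 (limma adjusted p = 0.00168). The Kdm5 enzymes of the same mark and Kdm1b were not called. The H3K9 demethylases Kdm3b, Kdm3a and Kdm4a fell by 0.76 ± 0.15, 0.66 ± 0.14 and 0.43 ± 0.13 (limma adjusted p = 0.00359, 0.00524 and 0.0213). The call of Kdm4a was lost without array A of E14.5 or arrays A or B of E11.5 (log2 change from -0.43 to -0.34, limma adjusted p from 0.0515 to 0.0593).

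Kdm4c, of the same subfamily as Kdm4a, had 540, 483 and 539 at E14.5 against 237, 340 and 315 at E11.5 and rose by 0.82 ± 0.29 (limma adjusted p = 0.0462). That call was lost without any 1 of the 3 arrays of E14.5 or of E11.5, or array C of E12.5 (log2 change from 0.67 to 0.93, limma adjusted p from 0.0550 to 0.142). The H3K27 demethylases Kdm6a and Kdm6b, which oppose Ezh2, were not called (-0.20 ± 0.16 and -0.35 ± 0.19, limma adjusted p = 0.352 and 0.170). Kdm2b, which brings PRC1 to unmethylated CpG islands, had 2194, 3863 and 3114 at E14.5 against 4679, 4796 and 4423 at E11.5. Its fall of 0.64 ± 0.20 (limma adjusted p = 0.0311) was lost without array A or C of E14.5 or any array of E11.5 (log2 change from -0.67 to -0.42, limma adjusted p from 0.0561 to 0.0787). Kdm2a, Kdm4b, Kdm7a and Kdm8 were not called, and Kdm4d was too dim to test.

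The chromodomain remodellers held the largest fall of all members. Chd7, mutated in human CHARGE syndrome, had signals of 738, 1222 and 909 at E11.5, 487, 475 and 453 at E12.5, and 156, 183 and 155 at E14.5. The 3 stages did not overlap, and the mean signal at E14.5 was 0.172 times that at E11.5. Chd7 fell by 2.51 ± 0.18 between E14.5 and E11.5 (limma adjusted p = 1.07e-05) and by 1.52 ± 0.18 between E14.5 and E12.5 (limma adjusted p = 0.000543). It also fell by 0.99 ± 0.18 between E12.5 and E11.5 (limma adjusted p = 0.0218), a call that was lost without any 1 of the 3 arrays of E12.5 (log2 change from -1.01 to -0.96, limma adjusted p from 0.0513 to 0.0919). Its second probe set fell by 2.16 ± 0.32 between E14.5 and E11.5 in the fit of all probe sets (limma adjusted p = 0.00141).

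Chd4, the motor of NuRD, had 1878, 2118 and 1755 at E14.5 against 3947, 4652 and 3353 at E11.5 and fell by 1.05 ± 0.17 (limma adjusted p = 0.00133). Chd1, which works at transcribed genes, fell by 0.98 ± 0.26 (limma adjusted p = 0.0141), and Chd1l, a remodeller recruited to DNA damage, by 0.72 ± 0.18 (limma adjusted p = 0.0107). Chd3, the alternative motor of NuRD, was not called (0.37 ± 0.17, limma adjusted p = 0.112). Chd2, Chd6, Chd8 and Chd9 were not called either, and Chd5 was too dim to test.

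In SWI/SNF, the motor Smarca4 (BRG1) fell and the alternative motor Smarca2 (BRM) rose. Smarca4 had signals of 7167, 9413 and 6676 at E11.5, 6888, 6118 and 6156 at E12.5, and 4058, 4129 and 3562 at E14.5. Smarca2 had signals of 1814, 1625 and 1932 at E11.5, 2182, 2899 and 2696 at E12.5, and 3354, 5035 and 4653 at E14.5. For both genes the E14.5 arrays stood apart from all earlier arrays. Smarca4 fell by 0.97 ± 0.16 (limma adjusted p = 0.00111) and Smarca2 rose by 1.26 ± 0.18 (limma adjusted p = 0.000641) between E14.5 and E11.5. A second, dimmer Smarca2 probe set rose by 2.04 ± 0.46 in the fit of all probe sets (limma adjusted p = 0.0103).

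Of the other subunits of the complex, Smarcd1, Smarcc1 and Smarce1 fell by 0.97 ± 0.16, 0.76 ± 0.15 and 0.73 ± 0.14 between E14.5 and E11.5 (limma adjusted p = 0.00130, 0.00355 and 0.00350). Their alternatives Smarcd3 and Smarcc2 were not called (0.27 ± 0.12 and -0.26 ± 0.17, limma adjusted p = 0.109 and 0.270). Smarcd2 was not called, and the core subunit Smarcb1 had a change of -0.38 ± 0.14 that missed the threshold (limma adjusted p = 0.0543).

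Of the ISWI motors, Smarca5 fell and Smarca1 rose. Smarca5 (SNF2H) had signals of 6869, 7254 and 6615 at E11.5, 5547, 5158 and 6080 at E12.5, and 3172, 3552 and 3220 at E14.5, with no overlap between stages. Smarca1 (SNF2L) had 1683, 1820 and 1640 at E11.5, 2142, 2459 and 2437 at E12.5, and 2401, 3237 and 3055 at E14.5, with E11.5 below both later stages. Smarca5 fell by 1.06 ± 0.12 (limma adjusted p = 0.000173) and Smarca1 rose by 0.75 ± 0.15 (limma adjusted p = 0.00320) between E14.5 and E11.5. Smarcad1 and Smarcal1, remodellers known from DNA repair and stalled replication forks, fell by 0.94 ± 0.19 and 0.61 ± 0.14 (limma adjusted p = 0.00404 and 0.00584).

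Some of the paralogs just described can replace each other in a complex, and others are related enzymes. The log2 ratio of their signals within each array was compared between E14.5 and E11.5 for 12 pairs. A level of one probe set cannot be set against that of another, so each ratio is given only relative to its own mean at E11.5. The Smarca4/Smarca2 ratio was -1.83, -2.39 and -2.49 in the E14.5 arrays, against -0.12, 0.43 and -0.31 in the E11.5 arrays. The Smarca5/Smarca1 ratio was -1.61, -1.88 and -1.94 at E14.5, against values from -0.02 to 0.02 at E11.5. These ratios lay wholly below those of E11.5, and E12.5 lay between them.

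The Ezh2/Ezh1 ratio changed by -1.35, Chd4/Chd3 by -1.42, Smarcd1/Smarcd3 by -1.23 and Smarcc1/Smarcc2 by -0.50 between E14.5 and E11.5, and Hdac2/Hdac1 by 0.40. The Dnmt3b/Dnmt3a ratio changed by -1.66 with the brightest probe sets but by 0.47 with 1423064_at for Dnmt3a, so its direction depends on the probe set. With a dimmer Hdac2 probe set, Hdac2/Hdac1 changed by -0.04 and overlapped. Smarcc1/Smarcc2 overlapped with 2 of 2 other Smarcc1 probe sets bright enough to test (-0.19 and -0.47), so it was apart only with the brightest. Chd4/Chd3 overlapped with 1 of 2 other Chd4 probe sets (-1.16). Of the 10 pairs with both members tested, with the brightest probe sets, 8 did not overlap between the stages, and each had the smallest p that 3 arrays against 3 allow (exact two-sided permutation test, p = 0.1, adjusted p = 0.133 over the 12 pairs). That exact test cannot pass 0.05 with 3 arrays against 3. For single genes, the signals of 5944 of all 11575 genes tested did not overlap between these stages, nor did those of 43 of the 67 members. No such share was computed for ratios of other gene pairs. Kdm6b/Kdm6a (-0.15, exact p = 0.6) and Hdac7/Hdac4 (-0.13, exact p = 0.4) overlapped. The ratios use the signals already described, so they show unequal change and are no separate evidence of direction.

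**Figure D5:**
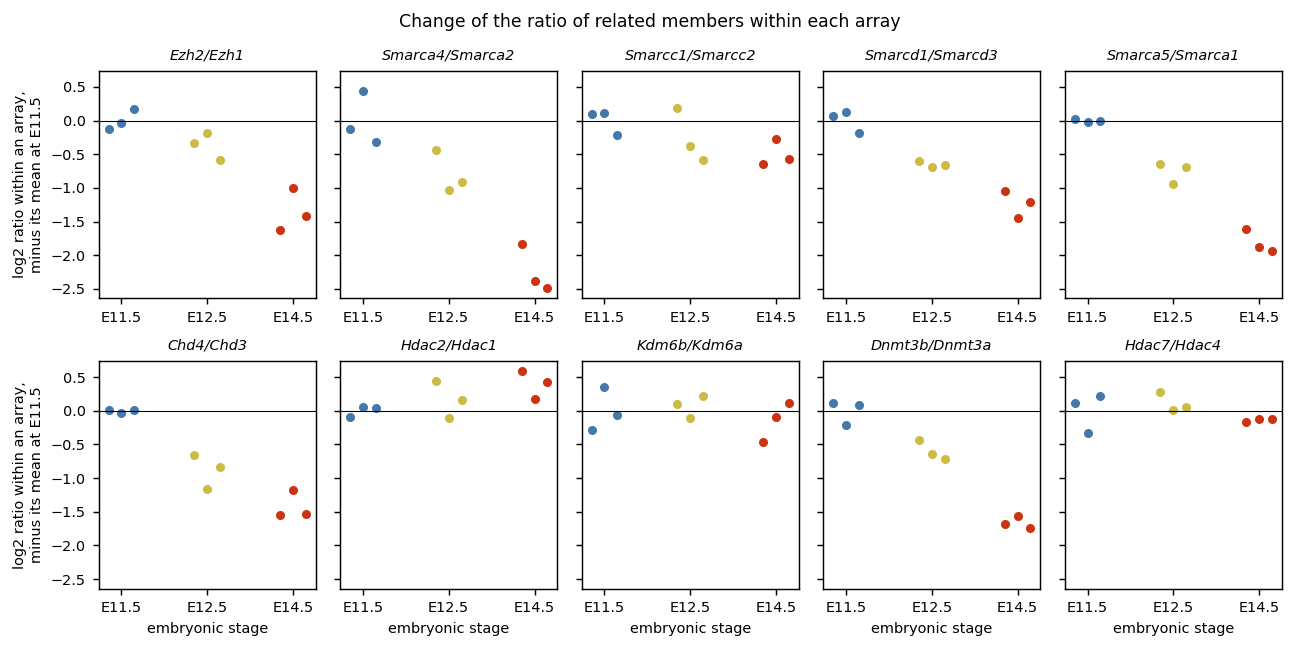
Log2 ratio of the signals of related members within each array, minus the mean of that ratio over the E11.5 arrays (points; 1 point per array) at the 3 stages, for the 10 pairs with both members tested. Smarca4/Smarca2 drops to -2.49 at E14.5, and Kdm6b/Kdm6a and Hdac7/Hdac4 show overlapping points.

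Promoters of a few members that moved are shown as chosen examples. E2F and NRF1 factors bind many genes of dividing cells, and windows with and without such letters are among them. RefSeq promoters (GRCm38.p6, 250 bases before to 50 after a start) were found for 58 of the 72 members. Capitals mark, on either strand, E2F letters (TTTGGCGC, TTTCCCGC, TTTGCCGC or TTTCGCGC), NRF1 letters (GCATGCGC), the NF-Y letters CCAAT and the CHR letters TTTGAA, which may overlap one another. The first 3 members fell and the last 2 rose between E14.5 and E11.5.
Ezh2, chr6:47594981-47595280, minus strand: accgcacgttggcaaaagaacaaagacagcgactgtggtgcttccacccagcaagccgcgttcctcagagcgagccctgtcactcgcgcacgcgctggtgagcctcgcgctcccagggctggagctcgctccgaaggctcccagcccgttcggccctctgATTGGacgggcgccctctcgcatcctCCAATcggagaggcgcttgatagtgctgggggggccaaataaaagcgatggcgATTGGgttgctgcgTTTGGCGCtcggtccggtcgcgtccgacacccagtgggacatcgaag
Dnmt1, chr9:20952574-20952873, minus strand, 1 of its 3 listed starts: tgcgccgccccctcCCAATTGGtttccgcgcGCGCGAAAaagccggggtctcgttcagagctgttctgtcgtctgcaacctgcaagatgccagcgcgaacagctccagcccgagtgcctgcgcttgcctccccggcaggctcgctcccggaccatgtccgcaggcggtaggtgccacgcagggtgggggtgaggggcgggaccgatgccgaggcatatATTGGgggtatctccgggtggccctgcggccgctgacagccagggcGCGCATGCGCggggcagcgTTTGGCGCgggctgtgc
Smarca4, chr9:21615919-21616218, plus strand: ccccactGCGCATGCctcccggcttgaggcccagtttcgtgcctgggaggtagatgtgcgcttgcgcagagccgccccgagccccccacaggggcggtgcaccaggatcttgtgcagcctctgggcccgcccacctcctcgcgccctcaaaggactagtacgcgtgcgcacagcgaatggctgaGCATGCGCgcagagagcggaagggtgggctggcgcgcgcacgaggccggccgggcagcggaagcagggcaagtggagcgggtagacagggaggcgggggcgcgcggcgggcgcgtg
Smarca2, chr19:26604910-26605209, plus strand: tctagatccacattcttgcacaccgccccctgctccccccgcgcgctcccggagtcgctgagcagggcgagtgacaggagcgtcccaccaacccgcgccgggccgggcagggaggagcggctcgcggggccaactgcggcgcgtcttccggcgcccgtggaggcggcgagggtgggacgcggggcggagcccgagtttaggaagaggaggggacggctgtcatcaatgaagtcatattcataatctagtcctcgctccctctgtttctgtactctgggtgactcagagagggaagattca
Cbx6, chr15:79834284-79834583, minus strand: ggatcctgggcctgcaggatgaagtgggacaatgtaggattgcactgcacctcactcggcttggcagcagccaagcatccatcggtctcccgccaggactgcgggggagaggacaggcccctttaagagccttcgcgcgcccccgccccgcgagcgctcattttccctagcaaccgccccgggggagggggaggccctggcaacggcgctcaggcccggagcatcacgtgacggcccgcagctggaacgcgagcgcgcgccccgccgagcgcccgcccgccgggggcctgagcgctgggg

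The Ezh2 window holds 1 E2F match and 3 CCAAT matches, the Dnmt1 window 2 E2F, 2 NRF1 and 3 CCAAT matches, and the Smarca4 window 2 NRF1 matches. The 2 NRF1 matches of Dnmt1 overlap in 1 stretch read on either strand, as do 2 of its CCAAT matches, while those of Smarca4 lie apart. The Smarca2 and Cbx6 windows hold none of these letters. The windows shown do not stand for all members that fell, as those of Dnmt3b, Eed and Kdm1a hold no E2F or NRF1 letters. Of the 3 listed Dnmt1 starts, only that shown holds E2F letters. E2F letters stood in 3 of 29 promoters of members that fell (19 genes), 0 of 8 of members that rose (6 genes) and 2 of 35 of members not called, against 3.98% of 12081 promoters of genes tested and 2.26% of all 32851 promoters. NRF1 letters stood in 5 of 29, 0 of 8 and 1 of 35 promoters of these groups, against 5.25% of promoters of genes tested and 2.71% of all promoters. CCAAT stood in 15 of 29, 2 of 8 and 9 of 35, against 37.7% and 37.4%, and TTTGAA in 5 of 29, 1 of 8 and 4 of 35, against 11.7% and 17.9%. Some genes have several starts, a match is no evidence of binding, and no match says only that these letters are not in this window.

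Lists of partner genes hold other subunits of these complexes, other genes of DNA methylation, and histone methyltransferases, acetyltransferases and sirtuins. Of 118 tested partners, 47 fell (39.8%, against 17.7% of all genes tested), 8 rose (6.78%, against 22.9%) and 63 were not called between E14.5 and E11.5, with a median log2 change of -0.35. Rises were most numerous among the Polycomb partners and the acetyltransferases. Of the Polycomb partners, 6 of 19 fell and 4 rose. Rbbp4, a histone chaperone shared with NuRD, fell by 1.14 ± 0.28 (limma adjusted p = 0.00968) and Mtf2, which brings PRC2 to CpG islands, by 1.11 ± 0.17 (limma adjusted p = 0.000929). The PRC2 accessory genes Phf1 and Aebp2 and the PRC1 genes Phc3 and Ring1 rose, by 0.53 to 0.84. Of the SWI/SNF partners, 9 of 15 fell, among them Actl6a by 1.04 ± 0.16 and Arid1a by 0.91 ± 0.13 (limma adjusted p = 0.000846 and 0.000502), and Bcl7c alone rose.

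Over all genes tested, 17.7% fell and 22.9% rose between E14.5 and E11.5. Of the ISWI, INO80 and SRCAP partners 5 of 14 fell, with Hells, a remodeller needed for DNA methylation, falling by 1.44 ± 0.15 (limma adjusted p = 7.64e-05). Of the NuRD and corepressor partners 7 of 15 fell, with Sap30 of the Sin3 complex falling by 1.58 ± 0.16 (limma adjusted p = 6.52e-05) and Rcor2 of CoREST by 1.52 ± 0.21 (limma adjusted p = 0.000521). Of 12 genes of DNA methylation 7 fell, including Uhrf1, which leads Dnmt1 to replicated DNA, by 0.95 ± 0.24 (limma adjusted p = 0.0120). Gadd45b, which is also a stress gene, rose by 2.35 ± 0.68 (limma adjusted p = 0.0213), with 3314, 810 and 670 at E14.5 against 494, 96.5 and 283 at E11.5, so that array A of E14.5 was the highest.

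Of 24 histone methyltransferases and their cofactors 9 fell and 0 rose by limma (also 0 at an unadjusted p under 0.05), the largest fall being that of Suv39h2, an H3K9 methyltransferase, by 1.66 ± 0.16 (limma adjusted p = 6.46e-05). The histone acetyltransferases and acetyl readers had 2 falls and 2 rises among 12. Kat2b rose by 1.13 ± 0.16 (limma adjusted p = 0.000552), with 1325, 865 and 1109 at E14.5 against 509, 466 and 506 at E11.5. Of 7 sirtuins, the NAD-dependent deacetylases, Sirt1 and Sirt5 fell. Between E14.5 and E12.5, 26 partners fell (22.0%, against 9.32% of all genes tested) and 2 rose (1.69%, against 12.6%; Aebp2 and Kat2b), and between E12.5 and E11.5 limma called 0 of 118 (15 at an unadjusted p under 0.05, 4 higher and 11 lower).

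Genes of cell division fell between the same stages. Of 29 tested genes of a cell cycle list, 25 fell between E14.5 and E11.5 and 18 between E14.5 and E12.5. Of all genes tested, 17.7% and 9.32% fell in these comparisons. Between E12.5 and E11.5 limma called 0 of the 29 (3 lower at an unadjusted p under 0.05). Their mean log2 signal lay between 11.60 and 11.87 at E11.5, between 11.42 and 11.54 at E12.5, and between 10.43 and 10.97 at E14.5, and their summed signals between 131646 and 156608, between 114433 and 123873, and between 61335 and 84279. The highest array was B of E11.5. Of the 25 members that fell, 19 had their highest E11.5 signal in that array, a count that was not made over all genes tested. Ezh2, Dnmt3b and Cbx1 had their highest E11.5 signal in array C, and Kdm1a, Smarce1 and Chd1l in array A. Within E14.5 the list was lowest in array C. Some members, such as Dnmt1 and Smarca4, were lowest there too, and others, such as Ezh2 and Hdac1, in array A. The part of cell division in the falls of the chromatin regulators was not tested.

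Markers of other cell types moved too. Over all genes tested, 22.9% rose and 17.7% fell between E14.5 and E11.5. The summed signal of 10 cartilage genes was 75638, 17483 and 8361 in arrays A, B and C of E14.5, against 15575 to 18380 at E11.5, and 6 of the 10 rose. At E12.5 this sum was 23827 to 29157, above arrays B and C of E14.5. Without array A of E14.5, 21 members fell and 5 rose between E14.5 and E11.5. Over all genes tested 1794 then fell and 2372 rose, against 2045 and 2646 with all arrays. Of 10 muscle genes 5 rose and 1 fell, with summed signals of 8472 to 11714 at E14.5 against 3609 to 5860 at E11.5. The muscle sums at E12.5 were 5484 to 10322, overlapping those of both other stages. All 4 tested endothelial genes rose, with summed signals of the 6 listed of 891 to 1350 at E14.5 against 192 to 443 at E11.5, while Pecam1 and Tie1 were too dim to test. Of 4 tested epidermal genes 3 rose and 1 fell, with summed signals of the 5 listed of 865 to 1015 at E14.5 against 563 to 648 at E11.5. Of 2 tested blood genes Hbb-bh1 fell and the other was not called (log2 change of 0.21). Tubb3 fell and was the only tested gene of the neural and glial list. Hba-a1, Alas2, Ptprc, Krt14 and Sox10 were too dim to test. Their part in the results was not tested. The tendon label matched the markers in that 9 of 10 rose between E14.5 and E11.5, among them Tnmd and Mkx, and Scx, present in every array, fell by 0.81 ± 0.22 (limma adjusted p = 0.0164).

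Between E14.5 and E12.5, the 19 members that fell were Chd7, Cbx2, Ezh2, Hdac6, Dnmt3b, Smarca5, Smarca4, Smarcd1, Dnmt1, Smarce1, Chd4, Kdm3b, Eed, Kdm1a, Smarcc1, Kdm3a, Smarcal1, Smarcb1 and Kdm4a, by 0.43 to 1.64. Of these, 18 also fell between E14.5 and E11.5, a comparison that shares the E14.5 arrays, and Smarcb1 did not. The rises were those of Cbx6 and Smarca2 (0.73 ± 0.18, limma adjusted p = 0.0196). The count of falls moved with single arrays, to 8 without array A of E12.5, 11 without array C of E12.5, and 12 without each array of E14.5. Over all genes tested, falls dropped too, from 1079 to 554 without array A and to 646 without array C of E12.5. Without 1 array of E14.5 they numbered 651 to 979. Of the 21 calls, 9 held without each array in turn, and the other 12 were all lost without array A of E12.5 (Chd4, Dnmt1, Kdm1a, Kdm3a, Kdm3b, Kdm4a, Smarca2, Smarcal1, Smarcb1, Smarcc1, Smarcd1 and Smarce1), 8 of them also without array C of E12.5 and 8 without each array of E14.5. Their limma adjusted p-values in those fits lay between 0.0506 and 0.155, and each change was 0.744 to 1.18 times that with all arrays. With the letters as a replicate block, Chd4 and Kdm3a lost their calls (limma adjusted p = 0.0541 and 0.0532) and Chd1l, Smarcad1 and Kdm8 passed the threshold (limma adjusted p = 0.0372, 0.0487 and 0.0480), which gave 20 falls.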

How the data were processed

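Gene expression was measured in 9 samples, 3 per stage, on Affymetrix Mouse Genome arrays. The authors deposited 1 linear signal intensity per probe set and array. Per the submitters' processing notes, it was computed by the MAS5 method (Affymetrix Expression Console, version 1.1). Their mean without the lowest and highest 2% was 500 in every array, and they were used as deposited, with no further normalization. The number of arrays limits the precision. Genome build and strain are not given in the sources used here.

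Probe sets with 1 gene symbol in the platform annotation were used (34945 of 45101). Each gene was represented by its brightest probe set by mean log2 signal, with _x_at sets as a last resort. Signals under 22.7, the 25th percentile, were set to that floor before log2. A gene was tested if it exceeded 90.6, the median signal, in at least 3 arrays. Of the members, Cbx7, Chd5, Dnmt3l, Kdm4d and Tet3 did not, with signals from 3.79 to 122. The 72 members had 186 probe sets.

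One limma fit (limma 3.58.1, R 4.3.3) of 9 arrays with 1 mean per stage gave two-sided contrasts with Benjamini-Hochberg adjustment over 11575 genes, called at adjusted p under 0.05. A second fit ran over all probe sets. Signals are printed before the floor. The script was tested on simulated data.

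Members and lists were chosen with earlier results of these data known. Named genes were, per pair of stages, the 4 called members with the largest change in each family, the Polycomb core, Dnmt and Tet genes, the members of the pairs, and up to 4 called partners per list. Smarcb1, Cbx3, Kdm8, Kdm5d and the partners Phf1, Aebp2, Phc3, Ring1, Bcl7c and Uhrf1 were named after their values were seen.

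The letters were checked as pairs by correlating the deviations from stage means. In the order A, B and C, r was 0.520, 0.133 and 0.332 between E12.5 and E11.5, 0.310, 0.121 and 0.289 between E14.5 and E12.5, and 0.313, -0.0052 and 0.238 between E14.5 and E11.5, so letters paired the arrays by this check in the first 2 comparisons but not in the third. The calls printed come from the fit without letters unless a replicate block is named. The median signal of the arrays rose from A to B to C at each stage (68.7, 79.6 and 106 at E11.5, 69.5, 94.5 and 106 at E12.5, and 81.5, 91.1 and 118 at E14.5). Other floors, filters, normalizations, priors, array weights, probe set rules, a replicate block and leaving out each array were tried.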

Additional observations from a re-analysis of the deposited data

How the results depend on the processing

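No called member changed sign under any of the 21 alternatives, in any pair of stages. All alternatives kept 17 of the 31 calls between E14.5 and E11.5, 4 of 21 between E14.5 and E12.5 (Chd7, Cbx2, Cbx6 and Ezh2) and 0 of 2 between E12.5 and E11.5. The median of all probe sets was 0.20 higher (log2) at E14.5 than at E11.5 and 0.11 higher than at E12.5, and lay between 68.7 and 106 within E11.5. Centring on it, chosen after seeing the data, gave larger falls with fewer calls (Kdm1a -0.90 between E14.5 and E11.5, limma adjusted p = 0.0504). It left 2 rises and 18 falls between E14.5 and E11.5 and 1 rise and 3 falls between E14.5 and E12.5, and 0 falls between E12.5 and E11.5. With the mean of a gene's probe sets, 4 rose and 24 fell between E14.5 and E11.5, where Hdac9, Kdm4a, Kdm4c and Eed lost their calls (limma adjusted p = 0.0642 for Eed) and Hdac2 fell, 1 rose and 12 fell between E14.5 and E12.5, and 0 rose and 0 fell between E12.5 and E11.5. In that last comparison no filter and centring on the genes tested each gave 0 rises, a fit of both stages alone 0 rises and 0 falls, and trended and robust priors or array weights 2 falls each. Without the letter A arrays, 5 members fell between E14.5 and E12.5, as did 299 of all genes tested (1079 with all arrays).

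With each array left out in turn, falls ranged from 21 to 27 and rises from 4 to 6 between E14.5 and E11.5, falls from 8 to 21 and rises from 1 to 2 between E14.5 and E12.5, and falls from 0 to 2 and rises from 0 to 1 between E12.5 and E11.5. The replicate block gave 29 falls and 8 rises between E14.5 and E11.5 (Suz12, with a limma adjusted p = 0.0126, Bmi1, Kdm5d, Smarcb1, Chd9 and Hdac10 passed the threshold), 20 falls and 2 rises between E14.5 and E12.5, and 1 fall and 1 rise between E12.5 and E11.5, and changed no call beyond those named. With other probe sets, chosen after seeing the data, the change in Dnmt3b/Dnmt3a turned to 0.47 or 0.87 and that in Hdac2/Hdac1 to -0.044.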

Other observations

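Some members had probe sets that differed in their call. Of the 40 members with several probe sets bright enough to test, 29 had the same call in all of them between E14.5 and E11.5, and none had a rise in one and a fall in another. The 11 that differed were Cbx1, Chd1, Chd4, Dnmt3a, Hdac2, Hdac7, Kdm3b, Kdm6b, Smarcal1, Smarcc1 and Smarcd2, of which Dnmt3a spanned the widest range, with log2 changes from -1.80 to 0.60. Hdac7 and Smarcd2, which were not called, each had another probe set that rose (0.66 and 0.39), and Hdac2 and Kdm6b another that fell (-0.78 and -0.51). In the fit of all probe sets, which adjusts over more tests, Hdac1, Hdac9 and Kdm4c were no longer called between E14.5 and E11.5 (limma adjusted p = 0.0538, 0.0587 and 0.0656), nor were Chd4, Kdm3a, Kdm3b, Kdm4a, Smarcal1, Smarcb1 and Smarcc1 between E14.5 and E12.5 (limma adjusted p from 0.0509 to 0.0757), nor Hdac9 between E12.5 and E11.5 (limma adjusted p = 0.0735). A further Cbx5 probe set, dimmer than the one used, fell by 1.66 ± 0.22 between E14.5 and E11.5 (limma adjusted p = 0.000735).

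The Y-linked demethylase Kdm5d had signals of 413, 898 and 789 at E11.5, 426, 544 and 790 at E12.5, and 298, 472 and 426 at E14.5, and was not called. The labels give no sex of the embryos.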
